A study of Mus musculus with 6 samples.

Results

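Fibroadipogenic progenitors (FAPs) are mesenchymal cells of the skeletal muscle interstitium that can become fibroblasts or adipocytes. The adipogenic fate genes described here are 10 genes chosen by name for their part in the adipocyte branch: Zfp423, Cebpb, Cebpd, Pparg, Cebpa, Fabp4, Fabp5, Lpl, Cd36 and Plin2. The table of expression values held 9 of them among 16894 genes, and all 9 passed the filter on low values together with 14776 genes in all. Cd36, a fatty acid transporter, was not analysed here. Stranded mRNA libraries were sequenced from 3 non-senescent (control) cultures and from 3 senescent ones. The cells came from limb muscles of C57BL/6 mice aged 3 to 6 months, were enriched magnetically as CD45-/CD31-/α7-integrin-/SCA-1+ cells, and were grown with 20% fetal bovine serum and 10 ng/mL bFGF at 3% oxygen. Senescent FAPs had received etoposide, an inhibitor of topoisomerase II that breaks DNA, at 20 μM during 48 h and then spent 5 days in normal medium. The number of mice behind each culture, and the treatment of the control cells, are not given in the sources used here. The medium described for both groups is a growth medium, and no adipogenic induction is named for it.

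Adipogenesis is usually described as a relay of transcription factors. The zinc finger protein Zfp423 marks committed preadipocytes, the C/EBPβ and C/EBPδ factors (Cebpb, Cebpd) act early after a hormonal stimulus, and they lead to the nuclear receptor PPARγ (Pparg) and to C/EBPα (Cebpa), which keep each other active. PPARγ and C/EBPα then turn on genes for lipid uptake, binding and storage, among them Fabp4, Fabp5, Lpl, Cd36 and Plin2. Within muscle, FAPs are regarded as the main source of the adipocytes that appear between the fibres. Several of the lipid genes are also used by macrophages and capillary endothelial cells.

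Gene starts of 6 of the 10 genes could be matched to RefSeq promoters on GRCm38.p6, each covering 250 bases before and 50 bases after an annotated start. The promoters of 4 of them are printed, because Pparg was lower, Plin2 and Zfp423 were higher, and Cebpa did not pass the test in senescent FAPs. They are written 5′ to 3′ on the strand of the gene. The windows are chr6:115421816-115422115 (plus strand) for Pparg, the most downstream of its 3 annotated starts, chr4:86670010-86670309 (minus strand) for Plin2, chr8:87959546-87959845 (minus strand) for Zfp423, the more upstream of its 2 starts, and chr7:35119043-35119342 (plus strand) for Cebpa. Capitals mark matches, on either strand, to CCAAT (the CCAAT box), TATAAA (the usual TATA box), TTGCNNAA (letters of a C/EBP-type site), AGGTCA (a nuclear receptor half-site) and GGGCGG (the GC box).
Pparg: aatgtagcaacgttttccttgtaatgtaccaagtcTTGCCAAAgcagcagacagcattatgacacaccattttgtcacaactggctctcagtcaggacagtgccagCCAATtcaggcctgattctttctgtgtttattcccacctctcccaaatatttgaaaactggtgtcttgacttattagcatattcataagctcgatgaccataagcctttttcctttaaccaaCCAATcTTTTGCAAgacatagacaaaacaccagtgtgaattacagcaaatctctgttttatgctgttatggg
Plin2: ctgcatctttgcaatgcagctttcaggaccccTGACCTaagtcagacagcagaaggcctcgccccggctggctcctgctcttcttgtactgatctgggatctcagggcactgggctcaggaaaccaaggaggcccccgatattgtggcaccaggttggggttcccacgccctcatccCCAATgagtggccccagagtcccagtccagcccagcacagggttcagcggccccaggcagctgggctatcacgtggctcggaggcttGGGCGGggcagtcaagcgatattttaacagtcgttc
Zfp423: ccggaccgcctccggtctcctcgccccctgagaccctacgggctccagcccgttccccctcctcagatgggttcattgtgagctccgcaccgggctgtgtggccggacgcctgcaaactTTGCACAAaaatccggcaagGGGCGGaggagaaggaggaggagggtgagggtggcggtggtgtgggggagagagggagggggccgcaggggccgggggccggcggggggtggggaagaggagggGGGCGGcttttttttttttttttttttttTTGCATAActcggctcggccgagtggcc
Cebpa: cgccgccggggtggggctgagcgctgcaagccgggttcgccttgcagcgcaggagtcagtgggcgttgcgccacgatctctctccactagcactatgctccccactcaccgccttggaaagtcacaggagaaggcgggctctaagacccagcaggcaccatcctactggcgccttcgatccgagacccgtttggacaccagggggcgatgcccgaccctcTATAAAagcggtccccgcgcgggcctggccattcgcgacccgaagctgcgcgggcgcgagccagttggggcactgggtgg

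Positions are those of the first base of a match in the printed order, with the annotated start as 1. The Pparg window held TTGCNNAA letters at −215 as printed and at −16 as the reverse complement, and CCAAT at −144 and −22. The Zfp423 window held TTGCNNAA letters at −131 and 23 and GGGCGG at −111 and −7. The Plin2 window held CCAAT at −73, the reverse complement of AGGTCA at −218 and GGGCGG at 15, and the Cebpa window held TATAAA at −30. No 2 of the marked matches overlapped. Of all 32851 RefSeq promoter windows of this length, 37.4% held CCAAT, 13.6% held TATAAA, 10.8% held TTGCNNAA, 16.3% held AGGTCA and 35.7% held GGGCGG. These letters are a description of the windows. Expression values per gene do not show which start was used.

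Expression was deposited in CPM, read counts divided by the library size after edgeR's scaling between libraries, and is given in that unit throughout. Whole reads could be recovered from the values, and 41412179 to 59912520 reads per library fell on genes, so that 1 read was worth 0.0167 to 0.0225 CPM. The test was limma's on log2(CPM + 0.5), a scale that understates changes of genes with few reads. Log2 fold changes are senescent minus control, with their standard error (SE), and adjusted p is limma's p after Benjamini-Hochberg adjustment over all 14776 genes tested, with 0.05 as the threshold. The FAP marker Pdgfra was at 126 to 238 CPM in control and 182 to 254 CPM in senescent libraries, and Ly6a, which encodes SCA-1, was at 220 to 456 and 538 to 678 CPM. Of 9 FAP identity genes, 4 rose (Ly6a, Cd34, Dcn and Lum) and 2 fell (Col1a1, log2 fold change −2.29, and Fbn1, log2 fold change −1.31). Among all genes tested, 21.8% were called higher and 24.3% lower. Lum, counted among the 4, was at 0.179 and 0.475 CPM in control replicates 1 and 2, below the 0.5 CPM of the filter. It was thus tested through the senescent libraries, and its place in the count is no evidence of direction. The summed level of the 9 genes was 21655 to 41736 CPM in control and 12106 to 16996 CPM in senescent libraries. Most of this sum came from the matrix genes Col1a1, Col3a1 and Fbn1. Their means were 15545, 10041 and 5873 CPM in control and 3116, 6471 and 2350 CPM in senescent libraries. The proliferation marker Mki67 was at 100.5 to 247 CPM in control and 9.27 to 19.0 CPM in senescent libraries, and Cdkn1a, which encodes the cell cycle inhibitor p21, had means of 289.9 and 1038 CPM.

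Of the 9 adipogenic fate genes, 3 rose in senescent FAPs (Plin2, Fabp4 and Zfp423), 3 fell (Fabp5, Cebpd and Pparg) and 3 did not pass the test (Cebpa, Cebpb and Lpl). Called genes thus made up 6 of 9, against 46.1% of all genes tested, of which 21.8% were called higher and 24.3% lower. The same 6 genes had groups that did not overlap, as 57.4% of all genes tested did. Under the study's own rule (p below 0.01 before adjustment, and more than 1 in size on the log2 scale), Fabp5 and Cebpd were lower and no member was higher, against 3.9% lower and 6.93% higher among all genes tested. The median log2 fold change of the 9 genes was −0.23, beside −0.03 for all genes tested. In bulk RNA, fewer cells using a gene and less of its RNA per cell cannot be told apart.

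**Figure D1:**
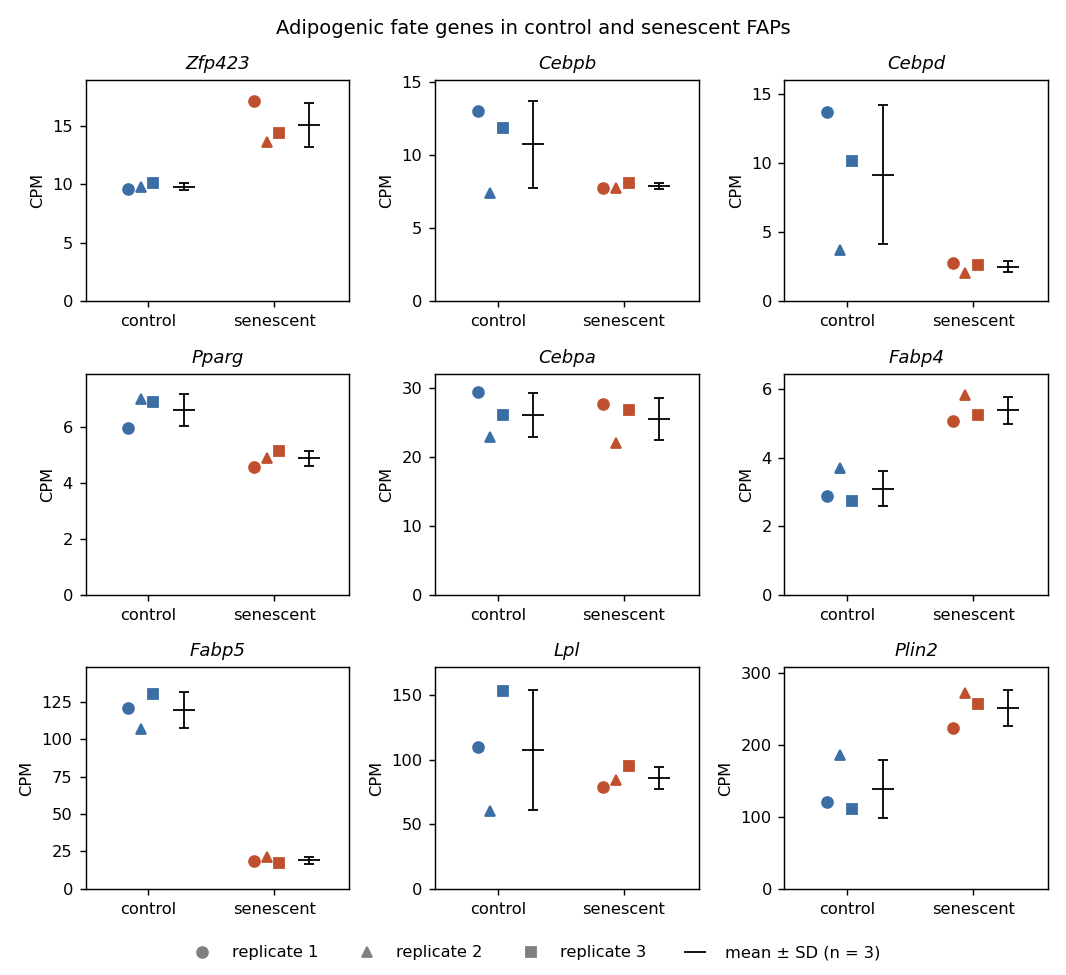
CPM of the 9 adipogenic fate genes (y axis, starting at 0, a scale for each gene) in 3 control and 3 senescent FAP cultures (x axis). Points are libraries with their replicate number as shape, and bars give the mean ± SD. Groups lie apart for Zfp423, Cebpd, Pparg, Fabp4, Fabp5 and Plin2, and control replicate 2 (triangle) lies away from the other controls for Cebpb, Cebpd and Plin2 and is the lowest of 3 spread controls for Lpl.

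Zfp423, the commitment factor, was at 9.55, 9.77 and 10.1 CPM in control replicates 1, 2 and 3 and at 17.1, 13.6 and 14.4 CPM in senescent replicates 1, 2 and 3. Every senescent library was above every control library, and the controls were close to each other (9.80 ± 0.260 against 15.02 ± 1.87 CPM, SD, n = 3 each). On the log2 scale it rose by 0.59 (SE 0.12, limma adjusted p = 0.00629). Control libraries held 428 to 561 reads of the gene and senescent libraries 638 to 863. Zfp521, a close relative that restrains adipocyte commitment and is known to oppose Zfp423, rose as well, from 41.1 ± 0.459 to 57.2 ± 2.08 CPM (SD, n = 3 each), a log2 fold change of 0.47 (limma adjusted p = 0.00157).

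Among the early C/EBP factors, Cebpd fell and Cebpb did not pass the test. Cebpd, which encodes C/EBPδ, had 13.7, 3.71 and 10.1 CPM in control replicates 1, 2 and 3 and 2.80, 2.04 and 2.66 CPM in the senescent replicates. Control libraries held 195 to 614 reads and senescent libraries 118 to 141. All senescent libraries were below all controls, but control replicate 2 stood much nearer to the senescent libraries than the other controls did. Cebpd fell by 1.53 on the log2 scale (SE 0.41, limma adjusted p = 0.0188). The change ranged from −2.04, without control replicate 2, to −1.17, without control replicate 1, and the adjusted p rose to 0.0619 without control replicate 3, to 0.0692 without senescent replicate 2 and to 0.0568 without senescent replicate 3.

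Cebpb, which encodes C/EBPβ, was at 13.0, 7.397 and 11.9 CPM in the control replicates and at 7.78, 7.796 and 8.12 CPM in the senescent replicates. Control replicate 2 was the lowest of all 6 libraries, so the groups overlapped. The log2 fold change was −0.39 (95% interval −0.86 to 0.08, limma adjusted p = 0.155), and it was −0.62 without control replicate 2 (adjusted p = 0.00403). Exons of both genes share bases with a gene on the opposite strand in GENCODE M21, 562 bases of Cebpd with Spidr and 312 bases of Cebpb with Tmem189, and whether reads were counted by strand is not given in the sources used here. Spidr had a log2 fold change of −0.21 and Tmem189 one of −0.17, neither past the threshold (adjusted p = 0.102 and 0.132).

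Pparg, the nuclear receptor at the centre of the relay, was weakly expressed, with 229 to 385 reads per library. It had 5.96, 6.998 and 6.91 CPM in control replicates 1, 2 and 3 and 4.59, 4.90 and 5.15 CPM in senescent replicates 1, 2 and 3. The groups did not overlap, and the mean was 1.36-fold lower in senescent FAPs. The log2 fold change was −0.40 (SE 0.13, limma adjusted p = 0.0372), close to the threshold. It missed the threshold in 5 of the 6 fits that left out 1 library (adjusted p from 0.0686, without senescent replicate 3, to 0.116, without control replicate 3), while the log2 fold change in those 5 fits stayed between −0.44 and −0.36, and it held without control replicate 1 (0.0407). With values divided by library totals alone it was −0.21 (adjusted p = 0.233), a scaling that moved the median of all genes from −0.03 to 0.17. Relative to the median of all genes tested, it was −0.37 under either scaling.

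Cebpa, which encodes C/EBPα, differed between the groups by less than the spread of the cultures. It had 29.3, 22.8 and 26.0 CPM in the control replicates and 27.7, 21.95 and 26.8 CPM in the senescent replicates. Replicate 2 was the lowest in both groups. The log2 fold change was −0.03, with a 95% interval from −0.33 to 0.27 (limma adjusted p = 0.856), and its sign changed under library totals, quantile normalization, DESeq2 and without control replicate 1 or senescent replicate 2. Its exons share 51 bases with Gm45091 on the opposite strand, whose reads could not be told apart if strand was not used in counting.

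The 2 fatty acid binding proteins moved in opposite directions. Fabp5, an epidermal-type lipid chaperone that many cell types use, had 121, 107 and 130.3 CPM in control replicates 1, 2 and 3 and 18.7, 21.4 and 17.01 CPM in senescent replicates 1, 2 and 3. No senescent library came near a control library, and the mean was 6.26-fold lower. Its log2 fold change of −2.62 (SE 0.11, limma adjusted p = 4.44e-05) was the largest among the 9 genes and stayed between −2.70 and −2.41 over the 17 other settings tried. GENCODE M21 also lists a processed pseudogene, Fabp5l2, to which counting could have lost reads. Whether it did was not tested.

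Fabp4, the adipocyte-type chaperone known as aP2 and a classic PPARγ target, was at 2.88, 3.69 and 2.73 CPM in the control replicates and at 5.06, 5.81 and 5.24 CPM in the senescent replicates. Each senescent library exceeded each control library, on few reads (129 to 194 per control library and 233 to 347 per senescent library). It rose by 0.71 on the log2 scale (SE 0.15, limma adjusted p = 0.00777) and passed the threshold in all 17 other settings, with an adjusted p of at most 0.0389.

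Within each library the log2 ratio of Fabp4 to Fabp5 was −5.06 ± 0.343 in control and −1.73 ± 0.107 in senescent FAPs (SD, n = 3 each). It differed by 3.33, and the groups did not overlap (exact permutation p = 0.1, two-sided, which no comparison of 3 against 3 libraries can go below, and 0.15 adjusted over 3 pairs). The log2 ratio of Cebpd to Cebpb differed by −1.14 (exact permutation p = 0.1, adjusted 0.15) and that of Cebpa to Cebpb by 0.35 (exact permutation p = 0.2, adjusted 0.2). A pair of Lpl and Cd36 had been planned and could not be formed.

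Lpl, which encodes the lipoprotein lipase that frees fatty acids from circulating triglycerides, varied more between control cultures than between the groups. Its control replicates stood at 110.0, 60.4 and 153 CPM and its senescent replicates at 79.0, 84.2 and 95.6 CPM. The senescent libraries lay inside the range of the controls. The log2 fold change was −0.23 (95% interval −0.91 to 0.46, limma adjusted p = 0.557). It was −0.59 without control replicate 2 (adjusted p = 0.0116) and 0.077 without control replicate 3 (adjusted p = 0.823), so its direction rested on single control cultures.

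Plin2, which encodes the perilipin that coats small lipid droplets in most cell types, had the most reads of the 9 genes in senescent FAPs. It was at 120.4, 185 and 111 CPM in control replicates 1, 2 and 3 and at 223, 272 and 257 CPM in senescent replicates 1, 2 and 3. All senescent libraries were above all controls, with control replicate 2 the nearest to them. The mean was 1.81-fold higher, from 139 ± 40.4 to 251 ± 24.9 CPM (SD, n = 3 each), with a log2 fold change of 0.88 (SE 0.19, limma adjusted p = 0.00707). The change was 1.11 without control replicate 2 and passed the threshold in all 17 other settings.

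**Figure D2:**
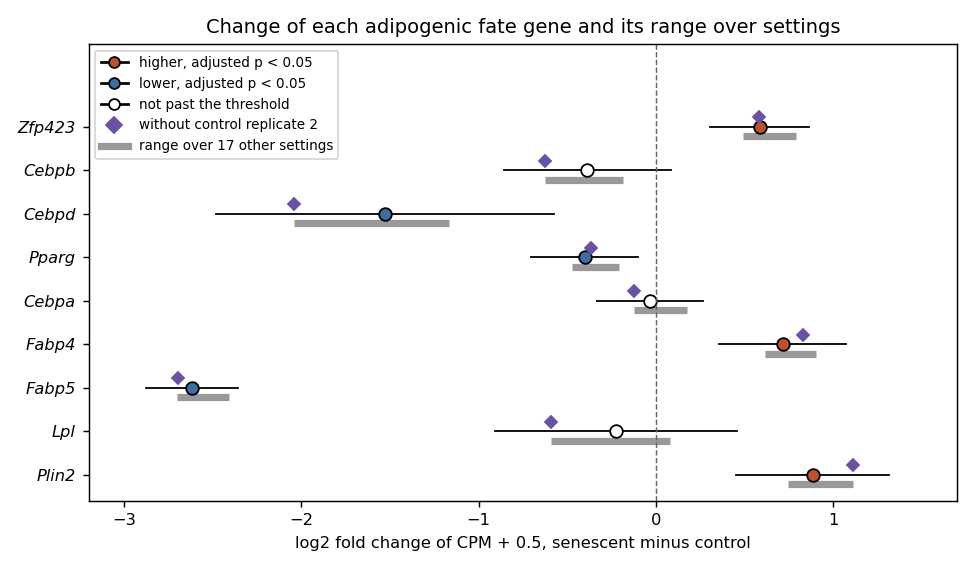
Log2 fold change (x axis, senescent minus control, on CPM + 0.5) of each of the 9 genes (y axis), with limma's 95% interval as a black line and the colour of the circle giving the direction where adjusted p is under 0.05. The grey bar spans the 17 other settings and the diamond is the value without control replicate 2. Zfp423, Fabp4, Plin2, Cebpd, Pparg and Fabp5 keep their sign throughout, as does Cebpb, which did not pass the test. The bars of Cebpa and Lpl cross 0.

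Control replicate 2 stood apart for several of these genes. On the log2 scale it was 1.55 below the mean of the other 2 controls for Cebpd, 1.10 below for Lpl and 0.71 below for Cebpb, and 0.677 above for Plin2. Over all genes tested the 5th percentile of this difference was −0.59 and the 95th was 0.685, so Plin2 lay just inside these limits. The 6 proliferation markers summed to 882 CPM in control replicate 2, against 433 and 375 CPM in control replicates 1 and 3 and 40.5 to 66.5 CPM in the senescent libraries. The part that proliferation had in these differences was not tested. Without this library 3 members were higher (Fabp4, Plin2 and Zfp423) and 4 lower (Cebpb, Cebpd, Fabp5 and Lpl), and Pparg was at an adjusted p of 0.0692.

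Levels of different genes can only be compared per length, here as CPM per kb of the principal transcript in GENCODE M21, on mean values of 3 libraries. In control FAPs Fabp5 was the highest, with 121 CPM per kb, ahead of Plin2 with 73.5 and Lpl with 26.2. The ranges of Fabp5 and Plin2 did not overlap between the 2 genes, nor did those of Plin2 and Lpl. In senescent FAPs Plin2 led with 133 CPM per kb, while Lpl with 20.97 and Fabp5 with 19.3 overlapped in their ranges. Pparg and Fabp4 overlapped in control FAPs, with 3.75 and 3.46 CPM per kb. Among the transcription factors Cebpa was the highest in both groups, with 9.92 and 9.70 CPM per kb, and Pparg stood at 2.76 in senescent FAPs. Cebpd, at 2.45 in control FAPs, was the lowest of the 9 genes in senescent FAPs with 0.667 CPM per kb. The order depended on the length used, since Plin2 rather than Fabp5 came first in control FAPs when all annotated exons were counted as length.

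**Figure D3:**
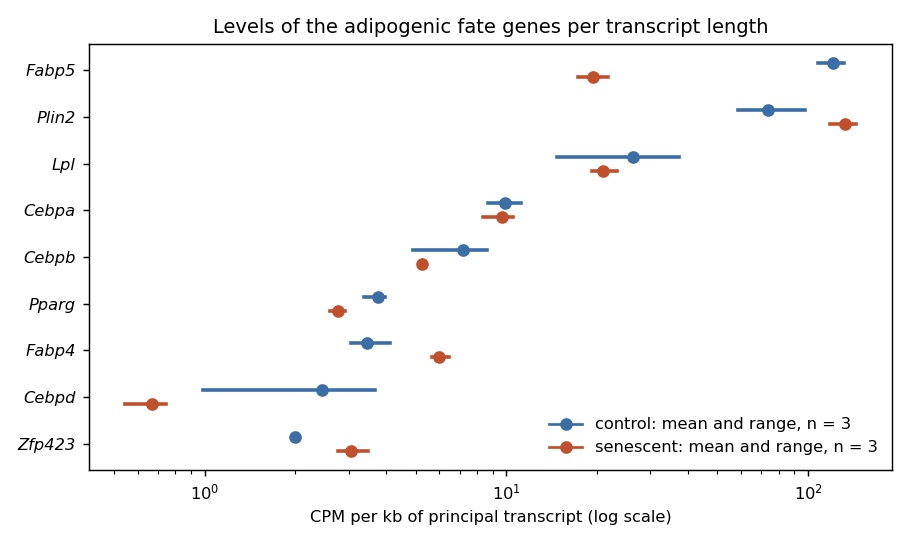
CPM per kb of principal transcript (x axis, log scale) of the 9 genes (y axis, ordered by control mean) in control and senescent FAPs. Points are means and lines span the 3 libraries. Fabp5 drops from 121 to 19.3 and Plin2 climbs from 73.5 to 133.

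The pattern of Pparg over the 6 libraries, each gene centred on its own mean, was closest to those of Ncbp1, Atp13a3 and Tnpo1, with a root mean square distance of 0.029 to 0.037 on the log2 scale over 6 libraries. The nearest of the other adipogenic fate genes was Cebpa, at a distance of 0.28 and rank 6569 among the genes tested.

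The rest of the adipogenic programme was followed in 7 lists of 112 genes, of which 87 had values and 83 were tested. Of these 83, 23 rose and 19 fell, together 50.6%, which is near the 46.1% of all genes tested. In the list set beside the C/EBP members, Cebpz, grouped there by its name alone, fell by 0.27 on the log2 scale (limma adjusted p = 0.0249). Cebpg fell by 0.32 (adjusted p = 0.0496). Both calls were lost with library totals, with quantile normalization and in 4 of the 6 fits that left out 1 library (control replicate 1 or 3, senescent replicate 1 or 2), and 1 was lost without senescent replicate 3 and with edgeR, DESeq2, median-of-ratios factors, no variance trend or a filter at 2 CPM. Ddit3, which encodes the C/EBP inhibitor CHOP, had 40.3 ± 14.3 CPM in control and 43.2 ± 1.89 CPM in senescent FAPs (SD, n = 3 each) and did not pass the test.

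Of 7 PPAR, RXR and coactivator genes tested, 4 rose and 1 fell, beside 21.8% higher and 24.3% lower among all genes tested. Without senescent replicate 2, 2 were higher, and with library totals none was lower. Ppargc1a, which encodes the coactivator PGC-1α, was almost silent in control FAPs, with 0.177 ± 0.164 CPM, and had 1.23 ± 0.0984 CPM in senescent FAPs (SD, n = 3 each, log2 fold change 1.38, limma adjusted p = 0.00156). It passed the filter on low values only through the senescent libraries, so only a rise could be seen and its place in the count is no evidence of direction. The coactivator Ncoa1 rose by 0.50 and Med1, a Mediator subunit that binds PPARγ, fell by 0.41 on the log2 scale.

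Of 16 regulators that favour adipogenesis, 4 were higher and 5 lower, near the shares of all genes tested (21.8% and 24.3%), with a median log2 fold change of −0.0021. The lower count fell to 1 with library totals and without control replicate 3, senescent replicate 1 or senescent replicate 2, to 2 without control replicate 1 and with quantile normalization, and to 3 without control replicate 2, with no variance trend and with edgeR. Nr1h3, which encodes the oxysterol receptor LXRα, rose from 1.03 ± 0.165 to 3.90 ± 1.11 CPM (SD, n = 3 each, limma adjusted p = 0.00122), by 1.503 on the log2 scale. Ebf2, a factor of brown preadipocytes, rose by 0.46, whereas Prdm16, a factor of brown and beige adipocytes, fell by 1.14 on the log2 scale (adjusted p = 0.00393).

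Of 17 regulators that restrain adipogenesis, 4 were higher and 7 lower, beside 21.8% and 24.3% of all genes tested. The lower count was 3 without senescent replicate 2, and 4 without control replicate 1, without senescent replicate 3 and with library totals. The Krüppel-like factor Klf2, which represses the Pparg promoter, fell from 40.3 ± 8.61 to 11.2 ± 2.02 CPM (SD, n = 3 each), a log2 fold change of −1.79 (limma adjusted p = 4.89e-04). Zfp521 rose as described.

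Among genes of lipid-filled adipocytes, 9 of 21 were tested and 5 rose, beside 21.8% of all genes tested. With all libraries none was called lower by limma, edgeR or DESeq2, nor at an unadjusted limma p under 0.05, and 1 was called lower without control replicate 2. Among all genes tested, limma called 24.3% lower. The higher count was 2 without senescent replicate 2, 3 without control replicate 2, control replicate 3, senescent replicate 1 or senescent replicate 3, and 3 with quantile normalization or a filter at 2 CPM. The 11 genes not analysed here include Adipoq, Plin1, Cidec and Lep, the defining genes of adipocytes, so the list cannot show whether these changed. Plin4, a perilipin of nascent droplets, rose from 1.27 ± 0.328 to 5.75 ± 0.370 CPM (SD, n = 3 each, log2 fold change 1.83, limma adjusted p = 3.32e-04). Lpin1, a phosphatidate phosphatase of triglyceride synthesis, rose from 15.5 ± 4.82 to 47.2 ± 3.02 CPM (log2 fold change 1.63, adjusted p = 0.00115), and Adrb3, the β3-adrenergic receptor, was at 0.501 ± 0.208 and 1.19 ± 0.162 CPM (log2 fold change 0.77, adjusted p = 0.0137). In control replicates 1 and 2 Adrb3 was below the 0.5 CPM of the filter, with 0.424 and 0.342 CPM, so it was tested through the senescent libraries. Plin4 and Lpin1, named for their small p, thus changed in the same direction as Plin2 and Fabp4 and opposite to Fabp5. Of the 9 tested genes of this list, 7 had a positive log2 fold change and 2 a negative one.

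Of 15 PPAR target genes of fatty acid oxidation and lipid handling, 5 rose, beside 21.8% of all genes tested, and 10 did not pass the test, with a median log2 fold change of 0.24. None was called lower by limma without the block, edgeR or DESeq2, nor at an unadjusted limma p under 0.05, but 1 was lower with the replicate number as a block. The share called lower among all genes tested was 24.3% in the main fit. The higher count was 12 with library totals and 3 without senescent replicate 2 or senescent replicate 3. Cpt1a, which encodes the gatekeeper of mitochondrial fatty acid import, rose from 34.9 ± 4.34 to 86.6 ± 4.17 CPM (SD, n = 3 each, log2 fold change 1.30, limma adjusted p = 1.93e-04). The dehydrogenase Acadvl rose by 0.69 on the log2 scale (limma adjusted p = 4.59e-04).

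Of 16 genes of fatty acid uptake, binding and lipid droplets, relatives and partners of Fabp4, Fabp5, Lpl and Plin2, 1 rose and 4 fell, beside 21.8% and 24.3% of all genes tested. With the replicate number as a block, 2 were higher and 6 lower, and 2 were higher without control replicate 1 or control replicate 2 and 3 with library totals. The fatty acid transporter Slc27a6 fell from 7.27 ± 1.10 to 1.72 ± 0.166 CPM (SD, n = 3 each, log2 fold change −1.80, limma adjusted p = 2.87e-04). Scarb1, the lipoprotein receptor SR-B1, fell by 1.15 on the log2 scale (adjusted p = 3.34e-04). Abhd5, the coactivator of triglyceride lipase on lipid droplets, rose by 0.47 (adjusted p = 0.00222).

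**Figure D4:**
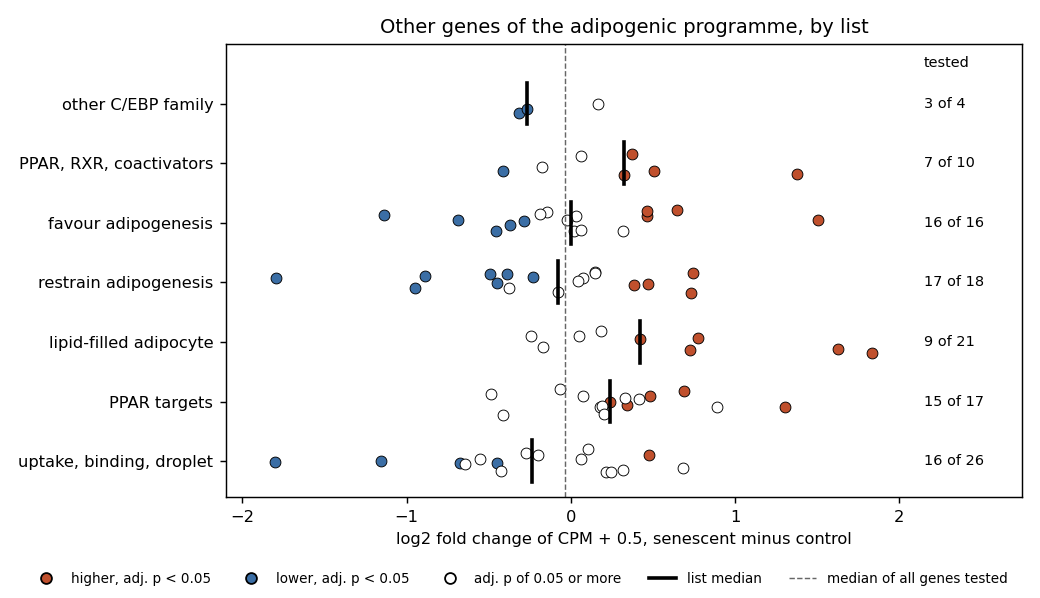
Log2 fold change (x axis, senescent minus control, on CPM + 0.5) of the 83 tested genes of 7 lists (y axis). Circles are genes coloured by direction where limma's adjusted p is under 0.05, black bars are list medians and the dashed line is the median of all genes tested. As plotted, no gene of the lipid-filled adipocyte and PPAR target lists was called lower, although 1 PPAR target was with the replicate block and 1 adipocyte gene was without control replicate 2. Of 16 uptake and droplet genes 4 were called lower (6 with the block), near the 24.3% called lower among all genes tested.

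Markers of other cells that use the lipid genes were measured beside them. Of 12 macrophage and leukocyte markers, 6 were tested and 4 rose, beside 21.8% of all genes tested, and their summed level was 13.6 to 16.5 CPM in control and 30.8 to 37.5 CPM in senescent FAPs. Cd53, a tetraspanin of leukocytes and the highest of these markers in senescent FAPs, rose from 1.98 ± 1.67 to 11.4 ± 2.74 CPM (SD, n = 3 each, log2 fold change 2.42, limma adjusted p = 0.00311). Csf1r, the highest by its mean over all 6 libraries, was at 6.74 ± 0.573 and 7.56 ± 0.489 CPM, and Cd14 at 2.53 ± 0.442 and 3.53 ± 0.200 CPM (SD, n = 3 each). Neither passed the test (limma adjusted p = 0.343 and 0.0603). Lyz2 and Cd68 rose to at most 6.59 and 5.79 CPM, Itgam was at 0 in control replicates 2 and 3 and at most 0.837 CPM in the senescent libraries, and Ptprc and Adgre1 were not analysed here. Itgam, counted among the 4, passed the filter on low values only through the senescent libraries, so only a rise could be seen. The part of such cells in the rises of Fabp4 and Plin2 was not tested. Endothelial markers summed to 24.9 to 45.8 CPM in control and 29.2 to 36.7 CPM in senescent FAPs, so their summed levels overlapped. Tek, the highest of them, carried most of the sum. Pecam1 rose from 0.706 ± 0.289 to 1.702 ± 0.152 CPM and Vwf from 1.082 ± 0.170 to 1.99 ± 0.448 CPM (SD, n = 3 each, limma adjusted p = 0.00897 and 0.0241). Pecam1 was at 0.467 CPM in control replicate 3, below the 0.5 CPM of the filter, so it was tested through the senescent libraries. Kdr fell by 0.74 on the log2 scale (limma adjusted p = 0.00989), and Cdh5 was at most at 0.647 CPM. Myogenic markers summed to 14.3 to 19.3 CPM in control and 23.7 to 30.5 CPM in senescent FAPs, of which Itga7, the antigen used to deplete myogenic cells, was the highest, and Pax7, Myod1 and Myf5 were not analysed here. The mural and Schwann cell markers summed to 307 to 407 CPM and 252 to 273 CPM, a sum carried by Cspg4, which fell by 0.77 on the log2 scale (limma adjusted p = 0.00366), as Mcam fell by 0.81. Notch3 and Rgs5, both of mural cells, rose by 1.67 and 1.54 on the log2 scale (adjusted p = 0.00132 and 0.00322). The part of endothelial, myogenic and mural cells in the changes of the adipogenic fate genes was not tested.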

How the data were processed

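RNA of 3 control and 3 senescent FAP cultures was compared, with groups and replicate numbers taken from the sample labels. From gene-level counts the authors made normalized values with edgeR (the submitters' processing notes name edgeR 3.10, R 3.6.0 and build mm10) and deposited the values as a signal in CPM of the effective library size, 1 column per library. The aligner, counting tool, annotation and low-count filter are not given in the sources used here. Each value was a whole multiple of 1 read (tolerance 0.01, 100% of values), so reads were recovered. A line without a gene name, left out here, took 0.0041% to 0.0070% of reads.

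Differential expression was tested with limma 3.58.1 in R 4.3.3 on log2(CPM + 0.5) with a variance trend, two-sided, over genes reaching 0.5 CPM in 3 or more libraries, with Benjamini-Hochberg adjustment over all genes tested. The design had assumed CPM, and the test was kept for the deposited signal. Nothing states how far the cultures are independent, so p values measure the spread between these cultures. The plan had no block, and the paper names edgeR for this comparison without stating a design. Same-numbered cultures deviated from their group means together (correlations 0.54, 0.31 and 0.21 over the genes tested), but control replicate 2 and senescent replicate 3 also did (0.15). The labels do not state that the numbers pair the cultures, and these correlations cannot settle it. A fit with the replicate number as a block was therefore run beside the main one. Alternatives were pseudocounts of 0.1 and 1, no filter or 2 CPM, median-of-ratios factors, library totals, quantile normalization, no variance trend, leaving out each library, and, on whole reads, DESeq2 1.42.0 and the quasi-likelihood test of edgeR 4.0.16. The steps were tested on simulated data.

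The members and lists were chosen with earlier results of these data known. Besides the members, the genes named are the 3 with the smallest p of each adipogenic list (2 of these genes are not reported here), the 3 closest in pattern to Pparg, and markers. Any further gene was picked with its values in view. Promoters are from RefSeq (GRCm38.p6) and lengths from GENCODE M21 on GRCm38, the assembly also called mm10.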

Additional observations from a re-analysis of the deposited data

How the results depend on the processing

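The calls of Fabp4, Plin2 and Zfp423 as higher and of Fabp5 as lower held in all 17 alternatives, and of 153 recomputed member values 136 kept direction and side of the threshold. The replicate block changed no call of a member, with 3 higher and 3 lower, and gave 25 higher and 23 lower in the 7 lists (23 and 19 without it) and 3576 higher and 3947 lower among all genes. Cebpa, never past the threshold, was 0.18 with library totals alone, 0.030 with quantile normalization, 0.0055 with DESeq2, 0.055 without control replicate 1, and −0.12 without control replicate 2 to 0.069 without senescent replicate 2 over the fits that left out 1 library. Lpl ranged from −0.59 without control replicate 2 to 0.077 without control replicate 3 in the same way. Leaving out 1 library each gave 1 (without control replicate 3, senescent replicate 2 or senescent replicate 3) to 4 members lower (without control replicate 2), always 3 higher, and 8 (without senescent replicate 2) to 17 genes of the 7 lists lower and 16 to 24 higher, with 10 lower without control replicate 1 and 11 without control replicate 3. Over all genes it gave 2130 (without senescent replicate 2) to 3405 higher and 2416 to 3875 lower, against 3218 and 3592 with all libraries. Library totals alone gave 5056 higher and 1933 lower among all genes and 35 higher and 8 lower in the 7 lists, with the median of all genes shifted to 0.17. The log2 ratios differed between groups by 3.19 to 3.52 for Fabp4 to Fabp5, 0.27 to 0.50 for Cebpa to Cebpb and −1.42 to −0.93 for Cebpd to Cebpb when 1 library was left out. The cause of these shifts was not tested. Pparg, Fabp4 and Cebpd are the members with the fewest reads, Cebpd with 118 to 141 in senescent libraries, and 3 cultures per group limit the precision of every value.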

Other observations

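Mgll, which encodes the monoglyceride lipase that completes the breakdown of triglycerides, differed widely between cultures of the same group. It was at 13.3, 438 and 187 CPM in control replicates 1, 2 and 3 and at 25.2, 253 and 217 CPM in senescent replicates 1, 2 and 3. Replicate 1 was the lowest in both groups and replicate 2 the highest. The log2 fold change between the groups was 0.11 (SE 1.33, limma adjusted p = 0.953). The gene was chosen after its values were seen, and the reason for the pattern was not tested.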
